A study of Homo sapiens with 9 samples.

Results

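Annexins are proteins that bind negatively charged membrane phospholipids when calcium rises, and several of them work as pairs with small calcium-binding proteins of the S100 family. The genes described here are ANXA1, ANXA2, ANXA3, ANXA4, ANXA5, ANXA6, ANXA7 and ANXA11 with S100A10 and S100A11. All 10 were found by name among the 78894 genes of the deposited tables. ANXA1 was the reason for the choice: its mRNA had been seen as the strongest fall in both SARS2 variants, so its differences from WT are given as a description with no p-value. The other 9 genes were taken because they belong to the same family or bind to it. Among 11131 named genes with a mean of at least 5 CPM (counts of a gene scaled to the total of its library), ANXA1 had the fall of rank 2 in R227Q, behind LGSN, and of rank 3 in H448L, behind IGLC2 and LGSN. Ordered by the p-value of edgeR it stood at rank 1 of 16908 genes in both comparisons. By the size of the fall over these 16908 genes it stood at rank 8 in R227Q and rank 46 in H448L. The choice did not state which order "strongest" meant. All these ranks come from the comparisons that led to the choice, so they describe it and are no test.

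The cells were Hap1, an established near-haploid human line of leukaemic origin. In all 9 libraries the endogenous SARS2 gene, which encodes the mitochondrial seryl-tRNA synthetase, had been deleted, and a FLAG-tagged SARS2 copy under doxycycline control had been off for 6 days without the drug. The groups differed in another SARS2 copy, myc-tagged, carrying int14 and constitutively expressed, which was WT, R227Q or H448L, with 3 libraries each. The column names carried the code SDKYMR (WT 1, WT 2 and R227Q 1) or 4LJFHN (WT 3, R227Q 2, R227Q 3 and H448L 1, 2 and 3). Libraries that share a code are called a submission here, from these codes alone. Every fit held the submission as a term unless stated otherwise. The labels do not say that libraries came from separate cultures, or whether a line was 1 clone. The p-values therefore rest on the spread among these libraries, and edgeR moderates the spread of each gene toward that of other genes.

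All annexins share a core of repeats that holds the calcium and phospholipid sites, and each has its own N-terminal tail that sets its partner. ANXA1 is known as a glucocorticoid-induced anti-inflammatory protein that acts through formyl peptide receptors, and its tail binds S100A11. ANXA2 forms a complex with S100A10 (p11) that holds plasminogen at the cell surface. ANXA5 is the phosphatidylserine-binding protein used as a probe for dying cells, ANXA4 and ANXA6 gather at injured plasma membrane, and the long tails of ANXA7 and ANXA11 bind the calcium sensors ALG-2 and, for ANXA7, sorcin.

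Total counts ran from 9900892 to 12991050 per library, so that 1 count equalled 0.0770 to 0.101 CPM, and ANXA1 had 276 to 1286 counts. The submissions themselves differed in 43.8% of the 16908 genes tested (edgeR's quasi-likelihood test, adjusted p under 0.05), and 7 of the 9 annexin and S100 genes that could be tested were among these. H448L was sequenced only in 4LJFHN, where WT 3 is the only WT library, so its differences from WT rest on WT 3 and on the submission term.

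ANXA1 mRNA was highest in WT, lower in H448L and lowest in R227Q. Its level was 88.7, 99.9 and 74.3 CPM in WT 1, 2 and 3, 32.7, 26.1 and 22.3 CPM in R227Q 1, 2 and 3, and 35.3, 36.0 and 36.4 CPM in H448L 1, 2 and 3. Every library of either variant lay below every WT library, and the R227Q and H448L ranges did not overlap. Ranges were apart for 19.2% of all genes in R227Q against WT, 31.5% in H448L and 13.3% between the variants. The means were 87.6 ± 12.8 CPM in WT, 27.1 ± 5.26 CPM in R227Q and 35.9 ± 0.558 CPM in H448L (SD, n = 3 each). The fitted log2 fold change from WT was −1.58 in R227Q (SE 0.06, 95% interval −1.71 to −1.45), a 2.99-fold lower level. In H448L it was −1.05 (SE 0.07, 95% interval −1.20 to −0.90), a 2.07-fold lower level. Taken by submission, R227Q lay −1.53 from WT among the SDKYMR libraries and −1.62 among those of 4LJFHN, where H448L lay at −1.07. In bulk RNA such as this, fewer cells that make a transcript and less of it per cell cannot be told apart.

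The choice of ANXA1 used no comparison between the variants, and that difference was tested. The test shares its libraries with the comparisons that led to the choice, so its p-value is not independent of that choice. ANXA1 was 1.45-fold higher in H448L than in R227Q, a log2 difference of 0.53 (SE 0.08, 95% interval 0.38 to 0.69, edgeR adjusted p = 3.9e-04). Of all 16908 genes, 0.207% passed the same test, 35 genes in number (0.0828% higher and 0.124% lower), and ANXA1 had the p-value of rank 4 among them. It was the only one of the 9 tested annexin and S100 genes to pass. Within 4LJFHN alone the difference was 0.56. It stayed between 0.46 and 0.58 in the 9 fits that each left out 1 library, and passed the test in all of them. With limma-voom it was 0.54 (adjusted p = 6.2e-04), with DESeq2 0.54 (unadjusted p = 1.4e-08, its adjusted p was not given by that program's own filter), and with no submission term 0.37 (edgeR adjusted p = 0.888).

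**Figure D1:**
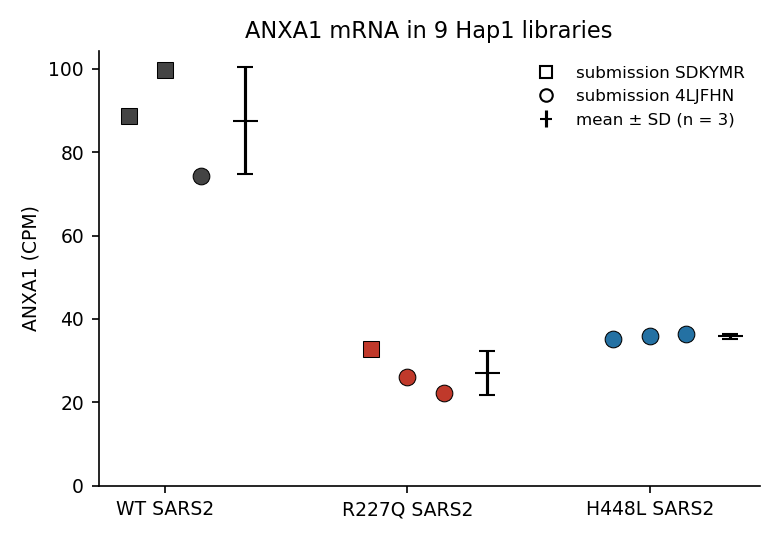
ANXA1 mRNA in CPM (vertical axis, linear from 0) in each of the 9 libraries by group; points are libraries, marker shape gives the submission, and the cross line and bar beside each group are its mean and SD (n = 3). The WT libraries lie between 74.3 and 99.9 CPM, above H448L at 35.3 to 36.4 CPM and R227Q at 22.3 to 32.7 CPM.

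The ANXA1 gene (ENSG00000135046) lies on chromosome 9 from 73151757 to 73170393 on the plus strand (GRCh38, GENCODE), and no other annotated gene overlaps it. Its counts were whole numbers in 9 of 9 libraries, where many other genes have fractional counts. The 250 bases before its RefSeq start are printed with those of ANXA2 as the family member with the greatest difference from WT and its most abundant relative with a small one. Both are on GRCh38.p14, 5′ to 3′ on the strand of the gene, and capitals mark the motif matches described after them.
ANXA1, chr9:73151615-73151864, plus strand: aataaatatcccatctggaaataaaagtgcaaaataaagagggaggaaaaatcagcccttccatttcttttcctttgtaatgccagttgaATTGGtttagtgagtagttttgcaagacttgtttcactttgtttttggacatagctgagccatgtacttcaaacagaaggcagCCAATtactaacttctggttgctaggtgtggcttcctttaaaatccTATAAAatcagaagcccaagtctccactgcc
ANXA2, chr15:60397987-60398236, minus strand: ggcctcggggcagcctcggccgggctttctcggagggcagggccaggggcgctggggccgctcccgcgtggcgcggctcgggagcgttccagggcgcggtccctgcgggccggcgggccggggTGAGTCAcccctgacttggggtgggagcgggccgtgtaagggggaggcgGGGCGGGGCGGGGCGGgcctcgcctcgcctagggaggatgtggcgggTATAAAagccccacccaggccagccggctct

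The ANXA1 window was the poorest in G and C among the 10 genes, at 38.4%, with 0 CpG dinucleotides. The other 9 windows held 50.0% (ANXA11) to 78.8% (ANXA5) G and C. Over all 35116 RefSeq promoter windows of this length the median was 58.0% with 11 CpG, and 10.1% of windows had less G and C than ANXA1. The capitals in the ANXA1 window are a TATAAA starting 31 bases before the start, a CCAAT at 77 bases and an ATTGG, which is CCAAT on the other strand, at 160 bases. In the ANXA2 window a TATAAA also starts at 31 bases. Its 3 GC boxes, with the letters GGGCGG, start at 68, 73 and 78 bases and overlap each other by 1 base. Its match to the AP-1 motif TGANTCA starts at 127 bases. Counting both strands, the TATA box was in 10.7% of all windows, the CCAAT box in 32.0%, the GC box in 42.6% and the AP-1 motif in 6.57%. The GC box was in 7 of the 10 windows, and in neither ANXA1, ANXA3 nor ANXA11. The full palindromic glucocorticoid response element, found in 0.00285% of all windows, was in 0 of the 10. So were the core of the amino acid response element (3.14% of windows) and the TEAD element GGAATG (11.9%). The E-box CACGTG (6.34%) was in ANXA6 alone. A match or its absence describes these letters only, before 1 RefSeq start per gene. The ANXA1 window runs past the GENCODE start of the gene, and the ANXA2 window lies within its GENCODE gene.

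**Figure D2:**
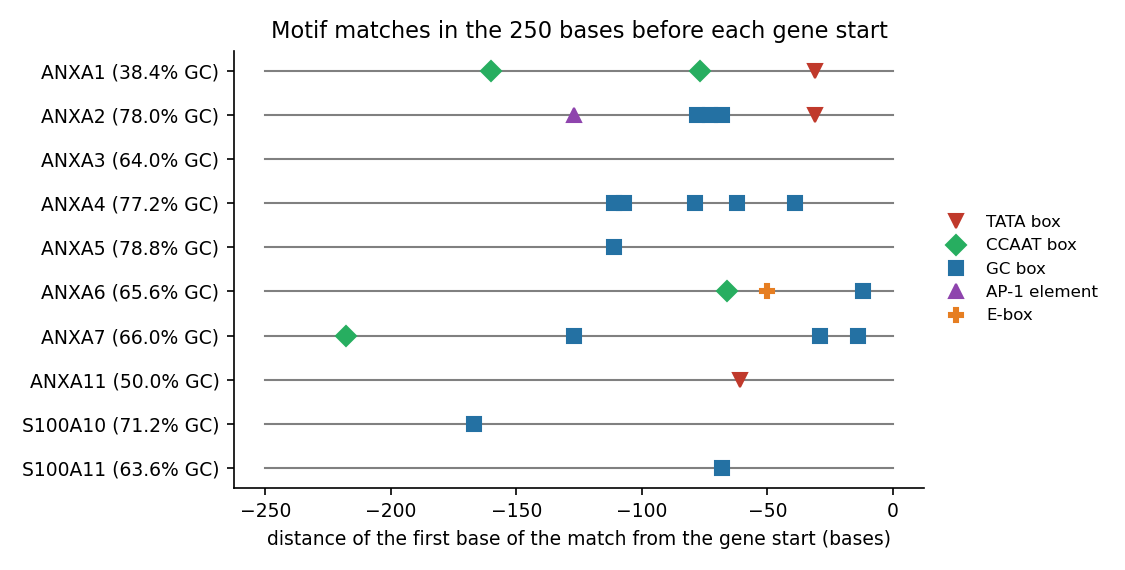
Positions of motif matches in the 250 bases before the RefSeq start of each of the 10 genes, as the distance in bases of the first base of a match from the start (horizontal axis), with the G and C content beside each gene name. ANXA1 has the lowest content at 38.4%, and ANXA1 and ANXA2 each have a TATA box 31 bases before the start.

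ANXA1 was chosen as the strongest fall, so smaller differences in its partners and relatives largely follow from the choice and are no result. In R227Q against WT, 3 of the 9 tested genes passed the test, ANXA1 included, all lower, where 17.4% of all genes passed, 7.5% higher and 9.91% lower. In H448L against WT it was again 3 of 9, ANXA1 included, all lower, where 7.97% of all genes passed, 2.97% higher and 4.99% lower. Since ANXA1 was chosen on these comparisons and the others with it, nothing is read from these shares. The median log2 fold change of the 9 genes was −0.09 in R227Q and −0.12 in H448L, beside 0.00 and 0.01 over all genes. Of the 8 other tested genes, 0 had R227Q levels in CPM that were all apart from WT, where this held for 19.2% of all genes. ANXA2, ANXA11 and S100A11 were apart in H448L, all lower, where it held for 31.5% of all genes, but there WT 1 and WT 2 also carry the difference between submissions.

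**Figure D3:**
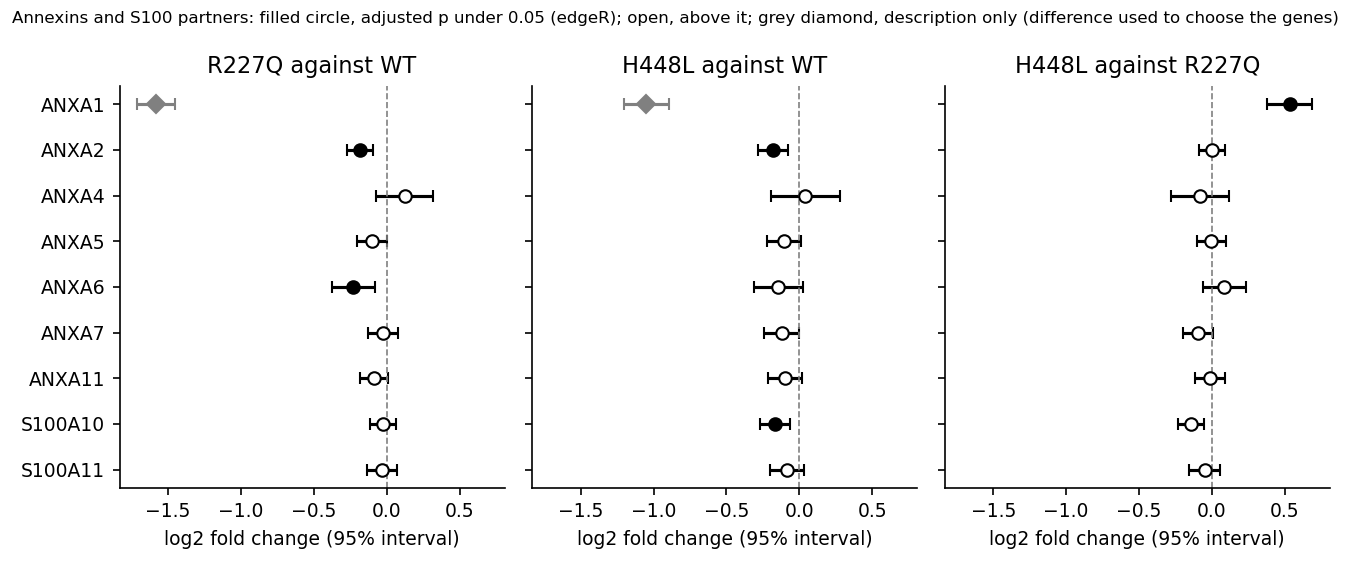
Fitted log2 fold change (horizontal axis) with its 95% interval for the 9 tested genes in the 3 comparisons; filled circles passed edgeR's test and open ones did not, and grey diamonds mark ANXA1 against WT, shown as a description. ANXA1 stands at −1.58, −1.05 and 0.53, and the other genes lie between −0.23 and 0.12.

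ANXA2 (ENSG00000182718, chromosome 15, 60347134 to 60402883, minus strand) and its partner S100A10 form the plasminogen-binding pair. ANXA2 stood at 337, 339 and 243 CPM in WT 1, 2 and 3, at 300.2, 208 and 222 CPM in R227Q, and at 206, 215 and 231 CPM in H448L. The high libraries were those of SDKYMR in either group, and the log2 difference of SDKYMR from 4LJFHN was 0.53 (SE 0.04, adjusted p = 1.5e-11 in edgeR). Within that difference, ANXA2 was lower in R227Q than in WT by a log2 fold change of −0.18 (SE 0.04, edgeR adjusted p = 0.0026). The SDKYMR libraries alone gave −0.18 and those of 4LJFHN −0.19. In H448L the log2 fold change was −0.18 (SE 0.05, adjusted p = 0.0201). H448L and R227Q differed by 0.00 (95% interval −0.09 to 0.09, adjusted p = 0.997). The R227Q call was lost without WT 3 (−0.18, adjusted p = 0.0749) and without R227Q 1 (−0.19, adjusted p = 0.0744). The H448L call was lost without WT 3 (−0.18, adjusted p = 0.301), R227Q 1 (−0.18, 0.0793), H448L 1 (−0.15, 0.0688) and H448L 2 (−0.17, 0.0711). ANXA2 counts were whole in 2 of 9 libraries and fractional in the others, so its level is uncertain to the extent that reads were split with copies of the gene. Its processed copy ANXA2P2 had 5.68 to 7.03 CPM in SDKYMR and 0.648 to 1.61 CPM in 4LJFHN, and its differences from WT, −0.37 and −0.72, did not pass the test.

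S100A10 (ENSG00000197747, chromosome 1) was at 210.2, 205 and 234 CPM in WT, 207, 226.8 and 231 CPM in R227Q, and 218, 213 and 198 CPM in H448L. The ranges of all 3 groups overlapped. Its log2 fold change was −0.03 in R227Q (SE 0.04, edgeR adjusted p = 0.735) and −0.17 in H448L (SE 0.05, adjusted p = 0.0325). Between the variants it was −0.14 (SE 0.04, adjusted p = 0.184). The H448L call was weak: it was lost without WT 1, WT 3, R227Q 1, R227Q 3, H448L 2 or H448L 3, each left out alone, with values from −0.18 to −0.13. It was also lost with upper-quartile scaling (−0.15, adjusted p = 0.0686).

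S100A11 (ENSG00000163191, chromosome 1), which binds the tail of ANXA1, had small differences that did not pass the test. It was at 90.6, 95.6 and 82.7 CPM in WT, 90.9, 79.0 and 84.8 CPM in R227Q, and 79.2, 80.7 and 79.0 CPM in H448L. The lower values were again those of 4LJFHN, with SDKYMR 0.21 above them in log2 units (SE 0.05, adjusted p = 7.6e-04 in edgeR). The log2 fold change was −0.03 in R227Q (95% interval −0.13 to 0.07, adjusted p = 0.706) and −0.08 in H448L (95% interval −0.20 to 0.03, adjusted p = 0.436).

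**Figure D4:**
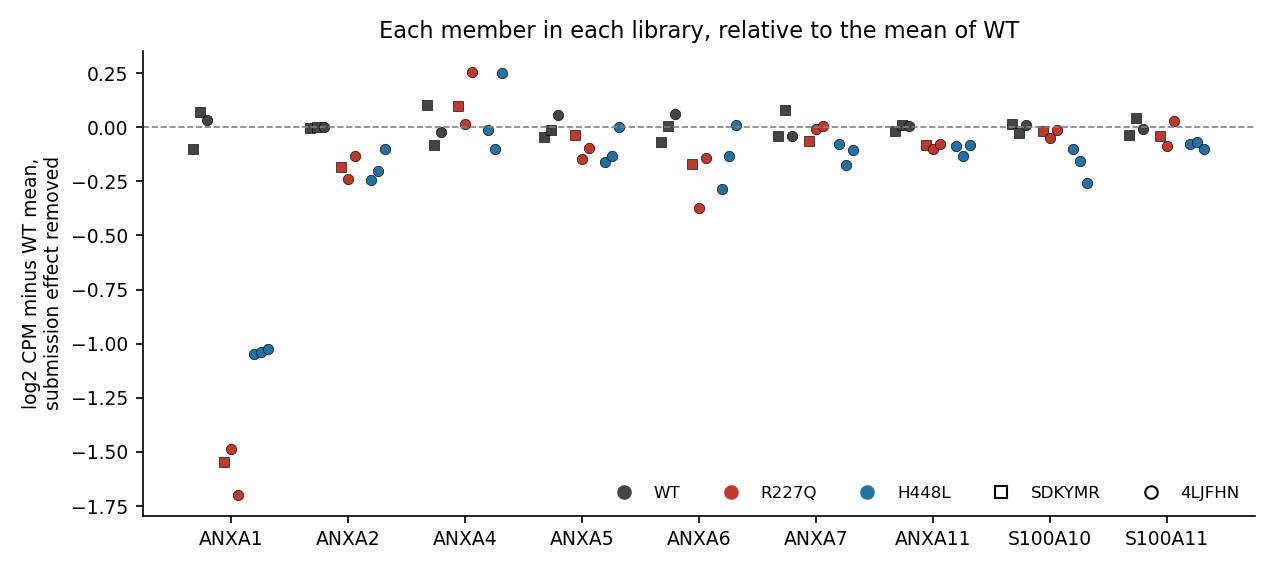
Log2 CPM of each of the 9 tested genes in each library after removal of the submission difference, minus the mean of WT (vertical axis); colour gives the group and marker shape the submission. ANXA1 lies far below 0 in every variant library, near −1.58 in R227Q and −1.05 in H448L, while the other genes lie nearer to 0. Of these, ANXA2, ANXA6 and ANXA11 were lower in every R227Q library than in any WT library.

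The phosphatidylserine-binding annexins showed small differences. ANXA6 (ENSG00000197043, chromosome 5), the annexin with a doubled core, was at 42.5, 44.7 and 57.0 CPM in WT, 39.9, 42.5 and 49.6 CPM in R227Q, and 45.1, 50.8 and 56.1 CPM in H448L. It was lower in R227Q by a log2 fold change of −0.23 (SE 0.07, edgeR adjusted p = 0.0258), with overlapping ranges in CPM. It was −0.14 among the SDKYMR libraries and −0.32 among the others. The call was lost without WT 3 (−0.14, adjusted p = 0.519), R227Q 1 (−0.31, 0.0539) or R227Q 2 (−0.16, 0.123), and with DESeq2 (−0.24, 0.0849). In H448L the value was −0.14 (SE 0.08, adjusted p = 0.327), and between the variants 0.09 (95% interval −0.06 to 0.23, adjusted p = 0.747).

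ANXA5 (ENSG00000164111, chromosome 4) differed more between submissions than between genotypes. Its level was 87.4 and 89.5 CPM in WT 1 and 2 and 88.7 CPM in R227Q 1, all of SDKYMR. The 4LJFHN libraries were higher, at 153.6 CPM in WT 3, 134.7 and 138.6 CPM in R227Q 2 and 3, and 132.7, 137.3 and 150.6 CPM in H448L. The difference of SDKYMR from 4LJFHN was −0.66 in log2 units (SE 0.05, adjusted p = 5.9e-12 in edgeR). The log2 fold change from WT was −0.10 in R227Q (SE 0.05, adjusted p = 0.189), made up of −0.01 among the SDKYMR libraries and −0.18 among the others. In H448L it was −0.10 (SE 0.06, adjusted p = 0.305). The mean in CPM was higher in H448L (140.2 ± 9.28) than in WT (110.1 ± 37.6), opposite to the fitted value, since 2 of the 3 WT libraries are of SDKYMR.

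ANXA4 (ENSG00000196975, chromosome 2) was the gene of the family whose libraries varied most within groups, with a residual SD of 0.15 on the log2 scale. It ranged from 17.3 to 19.9 CPM in WT, 18.0 to 21.1 CPM in R227Q and 16.7 to 21.3 CPM in H448L. Its log2 fold changes were 0.12 in R227Q (95% interval −0.07 to 0.32, edgeR adjusted p = 0.419) and 0.04 in H448L (95% interval −0.19 to 0.28, adjusted p = 0.884).

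The long-tailed annexins stayed close to WT. ANXA11 (ENSG00000122359, chromosome 10), which tethers RNA granules to lysosomes, was at 87.0, 88.8 and 73.9 CPM in WT, 83.7, 69.5 and 70.0 CPM in R227Q, and 69.9, 68.5 and 71.1 CPM in H448L. The SDKYMR libraries were again the high ones, by 0.31 in log2 units (SE 0.05, adjusted p = 4.6e-06 in edgeR). The log2 fold change was −0.09 in R227Q (95% interval −0.18 to 0.01, adjusted p = 0.232) and −0.10 in H448L (95% interval −0.22 to 0.02, adjusted p = 0.331). Its residual SD within groups was 0.02 on the log2 scale, below that of all but 0.73% of the genes tested. ANXA7 (ENSG00000138279, chromosome 10) ranged over 87.4 to 95.2 CPM in WT, 86.6 to 93.4 CPM in R227Q and 83.6 to 88.4 CPM in H448L, with log2 fold changes of −0.02 (adjusted p = 0.801) and −0.12 (adjusted p = 0.236). It shares 105 exon bases with an antisense gene, AL512656.1, and no source used here says whether the counting took strand into account.

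ANXA3 (ENSG00000138772, chromosome 4) was scarcely detected, with 0 to 3 counts per library and 0 in 6 of the 9 libraries. It did not pass the filter on low counts, and no fold is given. The floor of 3 counts corresponds to 0.231 to 0.303 CPM in these libraries. The remaining annexins ANXA8, ANXA8L1, ANXA9, ANXA10 and ANXA13 did not pass the filter either, and their highest value in any library was 0.162 CPM. So 7 annexins were expressed well enough to test.

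The response of ANXA1 can be set beside the genes around it in its known pathway. The formyl peptide receptor genes were close to absent: FPR1 and FPR3 were at 0 in all 9 libraries, and FPR2 was at 0.101 CPM in 1 library and 0 in the others. Of the 13 listed receptors, kinases and lipid mediator genes, 5 could be tested, and edgeR called 0 of them in each of the 3 comparisons. Of all genes it called 17.4% in R227Q, 7.97% in H448L and 0.207% between the variants, so nothing is read from 0 of 5. None had an unadjusted p under 0.05 in any of them, and neither DESeq2 nor limma-voom called one. NR3C1, the glucocorticoid receptor, was at 0.808 to 1.71 CPM. Of the 10 listed glucocorticoid genes 9 could be tested, and in R227Q 1 rose and 1 fell, beside 17.4% of all genes. TSC22D3 (GILZ), a glucocorticoid-induced leucine zipper protein, was at 54.4, 56.5 and 62.1 CPM in WT, 76.0, 88.5 and 92.8 CPM in R227Q, and 73.4, 75.2 and 68.1 CPM in H448L. It rose in R227Q by a log2 fold change of 0.49 (SE 0.05, edgeR adjusted p = 1.2e-07), opposite in sign to ANXA1. In H448L the value was 0.16 (adjusted p = 0.116), and H448L was lower than R227Q by −0.33 (adjusted p = 0.00223), a call lost without R227Q 3 (−0.28, adjusted p = 0.157). KLF9 fell in R227Q (−0.30, adjusted p = 0.0342), a call lost without any of WT 1, WT 2, WT 3, R227Q 1 or R227Q 2 (−0.34 to −0.24). It was also lost with DESeq2 (adjusted p = 0.219), limma-voom (0.0527), upper-quartile factors (0.0544) and every gene with a count (0.0771). In H448L edgeR called 0 of the 9, beside 7.97% of all genes, 1 of them had an unadjusted p under 0.05, and both other tools called 0.

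Among other S100 genes, 6 of 18 could be tested and edgeR called 0 in every comparison. Of all genes it called 17.4% in R227Q, 7.97% in H448L and 0.207% between the variants. In R227Q limma-voom called 1 and DESeq2 0, and 3 had an unadjusted p under 0.05, and in H448L and between the variants all of these counts were 0. S100A6, a partner of ANXA11, showed how far a family member can move with the submission, at 24.4 to 32.0 CPM in SDKYMR and 4.62 to 6.55 CPM in 4LJFHN.

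The plasminogen system that works on ANXA2 and S100A10 had 11 of 13 listed genes tested. In R227Q 1 rose, beside 17.4% of all genes that passed: PLAU (urokinase), with a log2 fold change of 0.76 (SE 0.26, edgeR adjusted p = 0.0435) at only 0.362 to 3.34 CPM. Leaving out WT 2, WT 3, R227Q 1 or R227Q 2 ended that call (0.60 to 1.19), as did limma-voom (0.76, adjusted p = 0.142). In H448L 1 rose, beside 7.97%: the membrane protease gene MMP14, by 1.64 (SE 0.42, adjusted p = 0.0121), from 0.385 to 0.724 CPM in WT to 1.42 to 2.53 CPM in H448L. It was lost without WT 3 (2.11, adjusted p = 0.129) or R227Q 1 (1.34, adjusted p = 0.1).

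Of the 16 listed genes of membrane repair and of the ANXA2-S100A10 scaffold, 13 were tested. In R227Q 1 rose and 4 fell, beside 17.4% of all genes, and in H448L 1 rose and 1 fell, beside 7.97%. DESeq2 called 1 of the 13 in R227Q and 0 in H448L, where its own filter gave AHNAK2 no adjusted p. AHNAK2, a relative of the S100A10-binding scaffold AHNAK, rose in both variants, by 1.46 in R227Q (SE 0.33, edgeR adjusted p = 0.00221) and by 1.56 in H448L (SE 0.37, adjusted p = 0.00749). Its level was 0.388 to 0.693 CPM in WT, 1.55 to 1.86 CPM in R227Q and 1.66 to 2.23 CPM in H448L. Neither variant overlapped with WT, as held for 19.2% of all genes in R227Q and 31.5% in H448L. Both calls were lost without WT 3 (1.49 and 1.59, adjusted p = 0.0564 and 0.159) and without R227Q 1 (1.43 and 1.53, adjusted p = 0.0743 and 0.0576). CAV1, the coat protein of caveolae, fell in R227Q from 14.4 to 16.5 CPM in WT to 10.5 to 11.6 CPM, a log2 fold change of −0.49 (SE 0.10, adjusted p = 5.8e-04), lost without WT 3 (−0.42, adjusted p = 0.0679). In H448L CAV1 was at 11.3 to 12.5 CPM, a log2 fold change of −0.39 (SE 0.12, adjusted p = 0.0353), lost without WT 1, WT 3, R227Q 1, H448L 2 or H448L 3 (−0.44 to −0.28), with DESeq2 (−0.40, adjusted p = 0.179) and in 4LJFHN alone (−0.44, adjusted p = 0.0505). The other genes that fell in R227Q were VAMP3 (−0.22), CAVIN1 (−0.21) and CAPN2 (−0.17). VAMP3 was lost without WT 1 or R227Q 1 (−0.19 and −0.11), CAVIN1 without WT 1, WT 3, R227Q 1 or R227Q 3 (−0.25 to −0.17), and CAPN2 without WT 1, WT 2, WT 3, R227Q 1 or R227Q 3 (−0.23 to −0.13). All 3 were lost with DESeq2 (adjusted p = 0.109, 0.101 and 0.119 in the same order).

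All 14 listed genes of ALG-2, sorcin and the ESCRT-III machinery, the partners of ANXA7 and ANXA11, were tested. In R227Q 2 rose and 3 fell, beside 17.4% of all genes, and in H448L 1 rose and 2 fell, beside 7.97%. DESeq2 called 3 of the 14 in R227Q and 2 in H448L. CHMP2A, an ESCRT-III subunit, was at 74.4, 82.6 and 91.8 CPM in WT, and at 100.7 to 112.7 CPM in the 6 variant libraries, above all of WT. Ranges were apart from WT for 19.2% of all genes in R227Q and 31.5% in H448L. The log2 fold change of CHMP2A was 0.29 in R227Q (SE 0.05, edgeR adjusted p = 2.6e-04) and 0.27 in H448L (SE 0.06, adjusted p = 0.00614). Both calls were lost without R227Q 1 (0.21, adjusted p = 0.0917 and 0.0924). LAMP1, a lysosomal membrane protein, fell by 0.17 on the log2 scale in R227Q, lost without WT 3 (−0.13), and by 0.18 in H448L, lost without WT 3, H448L 2 or H448L 3 (−0.19 to −0.12) and with DESeq2 (adjusted p = 0.0618). PDCD6IP (ALIX) fell in R227Q (−0.24, adjusted p = 0.00214), lost without R227Q 1 (−0.23, adjusted p = 0.0926). PDCD6, which encodes ALG-2, was 0.15 (adjusted p = 0.0452) in R227Q, a call that ended when any one WT or R227Q library was left out (0.10 to 0.19) and with DESeq2 (adjusted p = 0.222).

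For the phosphatidylserine that ANXA5 binds, 14 of 16 listed scramblase, flippase and synthase genes were tested. In R227Q 1 rose and 2 fell, beside 17.4% of all genes, and in H448L 0 rose and 2 fell, beside 7.97%. DESeq2 called 1 of the 14 in R227Q and 0 in H448L. ATP9A fell in H448L (−0.28, edgeR adjusted p = 0.0166), lost without R227Q 1 (−0.21, adjusted p = 0.152), with DESeq2 (−0.30, 0.0534), in 4LJFHN alone (−0.21, 0.161) and with no submission term (0.0047, 0.988). In R227Q its call (−0.19, adjusted p = 0.0483) was lost in 7 of the 9 fits that left out a library (−0.20 to −0.08), all but those without WT 3 or H448L 3. The scramblase PLSCR1 fell in H448L (−0.27, adjusted p = 0.0336), lost in 7 of 9 such fits (−0.34 to −0.22), all but those without R227Q 2 or H448L 1. Other calcium-dependent phospholipid-binding proteins had 16 of 20 tested, with 2 that rose and 1 that fell in R227Q, beside 17.4% of all genes, and 1 of each in H448L, beside 7.97%. The gene that rose in H448L, SYTL4, had 0.28 (adjusted p = 0.0454), lost in 8 of 9 fits that left out a library (0.26 to 0.29), all but that without H448L 1, and with DESeq2 (adjusted p = 0.241). DOC2B, a calcium sensor of vesicle fusion, was at 3.93, 4.43 and 6.24 CPM in WT and 6.68, 9.63 and 9.64 CPM in R227Q, and rose by 0.64 (SE 0.13, adjusted p = 7.8e-04). DOC2B kept its call in all 9 fits that left out a library, and lost it with no submission term (0.81, edgeR adjusted p = 0.0595).

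The genes whose pattern over the 9 libraries was most like that of ANXA1 were found by Pearson's r of log2 CPM after the submission difference was removed, among 11130 other named genes with a mean of at least 5 CPM. This is a description over libraries that share the same groups, and r takes no account of size. The 8 closest entries were TUBAP2 (r = 0.996), SERP1 (0.995), SQLE (0.991), GSPT1 (0.991), SLC25A6 (0.991, under 2 identifiers with equal values), NDUFB4 (0.990) and U2SURP (0.990). TUBAP2 is a pseudogene whose reads may belong to tubulin genes. SERP1 belongs to the translocon of the endoplasmic reticulum, SQLE is squalene epoxidase of cholesterol synthesis, and GSPT1 is a translation termination factor. SLC25A6 is a mitochondrial ADP/ATP carrier, and NDUFB4 is a subunit of respiratory complex I. SQLE was at 118, 119.7 and 132 CPM in WT, 78.3, 81.9 and 81.6 CPM in R227Q, and 94.1, 94.3 and 94.0 CPM in H448L. It kept the order of ANXA1 with a smaller range, −0.66 in R227Q and −0.48 in H448L, and the other 7 entries had −0.28 to −0.44 in R227Q and −0.17 to −0.28 in H448L.

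The 4 genes of the most opposite pattern were IGF2 (r = −0.994), TRIOBP (−0.989), DDIT4 (−0.988) and MBD6 (−0.988). IGF2, the insulin-like growth factor 2 gene, was at 3.28, 2.74 and 3.36 CPM in WT, 6.72, 8.20 and 9.57 CPM in R227Q, and 6.57, 6.86 and 6.36 CPM in H448L, log2 fold changes of 1.25 and 0.84. Among the other tested annexin and S100 genes, r with ANXA1 was 0.84 for ANXA11, 0.83 for ANXA2, 0.68 for ANXA6, 0.59 for ANXA5, 0.38 for S100A11, 0.28 for ANXA7, 0.26 for S100A10 and −0.45 for ANXA4.

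**Figure D5:**
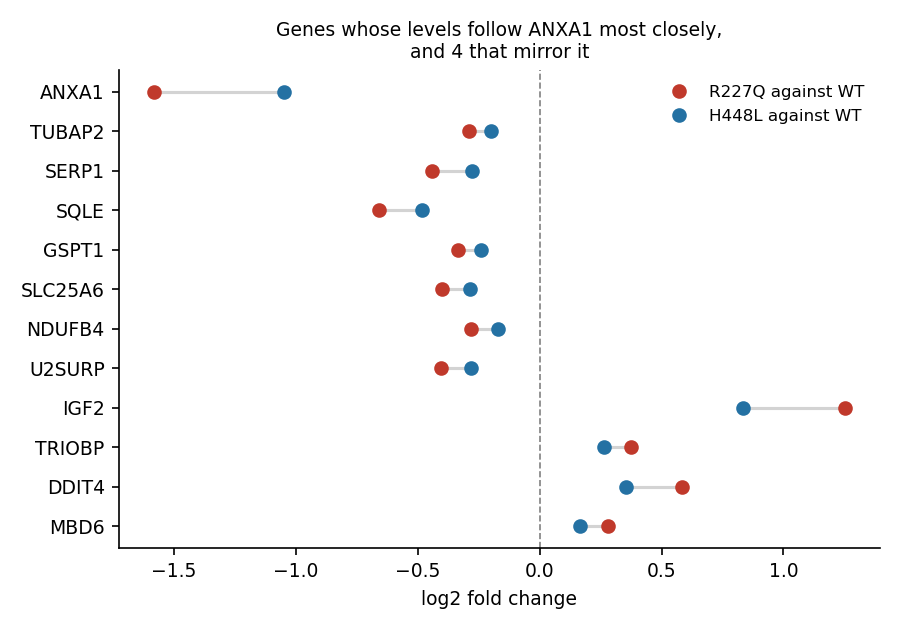
Fitted log2 fold change against WT (horizontal axis) in R227Q and H448L, joined by a line, for ANXA1, the genes most like it and the 4 most opposite. Each of the like genes is below 0 and lower in R227Q than in H448L, as ANXA1 is at −1.58 and −1.05, and IGF2 stands opposite at 1.25 and 0.84.

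ANXA1 is abundant in epithelial, myeloid and fibroblast cells, so markers of such cells were measured alongside it. The summed level of 10 epithelial markers was 112.6 to 114.9 CPM in WT, 117.4 to 131.5 CPM in R227Q and 106.8 to 118.2 CPM in H448L. For 11 fibroblast markers it was 1135 to 1560 CPM in WT, 1119 to 1625 CPM in R227Q and 1497 to 1512 CPM in H448L, most of it from VIM at 1079 to 1524 CPM. COL1A2, COL3A1, FN1 and TAGLN of that list were also higher in every 4LJFHN library than in any SDKYMR library, for FN1 20.7 to 28.3 CPM against 4.77 to 6.85 CPM. For 11 haematopoietic markers it was 10.95 to 26.1 CPM in WT, 11.7 to 27.3 CPM in R227Q and 25.4 to 32.0 CPM in H448L. That spread follows the submission too, since HBG1 was at 0 in all 3 SDKYMR libraries and at 12.997 to 19.9 CPM in the 6 of 4LJFHN. For 10 neural markers the sums were 244 to 260.1 CPM, 232 to 257 CPM and 247 to 253 CPM. Levels differed widely within a list. CDH1 (at most 0.267 CPM), PTPRC (at most 0.693 CPM) and SPI1 (at most 0.466 CPM) were near 0 in every library. Of the same lists, KRT18 was at 69.6 to 83.5 CPM, CLDN3 at 22.4 to 31.4 CPM and TAL1 at 3.08 to 5.35 CPM. The epithelial sum was higher in every R227Q library than in any WT library, and no sum lay below the WT range in both variants. In R227Q, beside 17.4% of all genes, 1 of 6 tested epithelial markers rose (KRT18), 2 of 8 fibroblast markers rose (COL1A1 and THY1), and of 7 neural markers 2 rose (MAP2 and NES) and 2 fell (SOX2 and TUBB3). KRT18 (0.15) was lost when any one WT or R227Q library was left out (0.10 to 0.20), with DESeq2 (adjusted p = 0.203) and with limma-voom (0.0516). COL1A1 (0.29) was lost without WT 3 (0.26), and THY1 (0.86) without WT 1, WT 2, WT 3, R227Q 1 or R227Q 3 (0.56 to 1.19). MAP2 (0.39) was lost without R227Q 1 (0.27), SOX2 (−0.26) without WT 3 (−0.21), TUBB3 (−0.17) without WT 3 (−0.18) or R227Q 1 (−0.16), and NES (0.21) without WT 2, WT 3, R227Q 1 or R227Q 2 (0.14 to 0.27) and with DESeq2 (adjusted p = 0.148). In H448L, beside 7.97% of all genes, 1 of 7 neural markers rose (NES, 0.27) and 1 fell (TUBB3, −0.27). Both were lost without WT 3 (0.18 and −0.28), and NES with DESeq2 (adjusted p = 0.0982). Between the variants, beside 0.207%, 1 of 6 epithelial markers was lower in H448L (CLDN3, −0.36, edgeR adjusted p = 0.0374). That call was lost in 7 of 9 fits that left out a library (−0.39 to −0.32). The part of other cell states in the ANXA1 difference was not tested.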

How the data were processed

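Poly-A mRNA of 9 Hap1 libraries was sequenced by a commercial service after lysis of the cells, per the labels' protocols. Per the submitters' processing notes, reads were placed on GRCh38, but no source used here names the aligner, the counting program or its strand setting. The authors deposited estimated counts per gene and CPM, per the file headers, in 1 table per submission. Each CPM equals the count over the library total, with a largest difference of 3.8e-06. Of the count values above 0, 70.4% to 72.5% were whole, and all were rounded before testing. The 92 ERCC spike-in entries were left out, and 36134 of the 78894 genes have no name.

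The 10 genes, the lists and the rule for named genes were chosen with earlier results of these data known. The rule named every annexin and S100 gene given, from each other list the called genes with up to 4 of the largest differences, and the 8 genes most like and 4 most opposite to ANXA1. The text did not keep to this rule throughout, and some called list genes are given by count only. Among these are CPNE5 (log2 fold change 1.35), GCA (−0.38) and PLSCR3 (0.34) in R227Q, larger than some called genes named from their lists. Each of these calls was lost in some of the 9 fits that left out a library.

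Genes passing edgeR's filterByExpr (16908) were tested with TMM factors (0.969 to 1.02) by the quasi-likelihood test, with terms for group and submission on all 9 libraries (5 residual degrees of freedom, common biological coefficient of variation 2.96%), two-sided, at a Benjamini-Hochberg adjusted p under 0.05. Values for 1 submission compare group means of log2 CPM (prior count 2). The versions were DESeq2 1.42.0, limma 3.58.1 and edgeR 4.0.16 on R 4.3.3. The alternatives left out each library, the submission term or all of SDKYMR, added a replicate block, scaled by upper-quartile or RLE factors, kept every gene with a count or those with a mean of at least 10, and used limma-voom or DESeq2. Promoter windows came from RefSeq (GRCh38.p14, all 10 genes matched by symbol).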

Additional observations from a re-analysis of the deposited data

How the results depend on the processing

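ANXA1 kept its sign in 53 of 53 alternative values over the 3 comparisons. Leaving out 1 library at a time gave −1.63 to −1.53 in R227Q, −1.07 to −0.98 in H448L and 0.46 to 0.58 between the variants. With no submission term it was −1.72, −1.35 and 0.37, the last no longer past the test.

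The genes called in R227Q (2944, of which 1268 higher and 1676 lower) became 1557 with DESeq2, 312 with no submission term, 1138 in 4LJFHN alone and 1093 to 3262 with 1 library left out. Upper-quartile factors turned the split to 1565 higher and 1335 lower. The 1347 of H448L became 694, 147, 734 and 253 to 1378. The 35 between the variants became 54 with DESeq2, 122 with every gene with a count, 1 with no submission term and 4 to 91 with 1 library left out. Of the 3 annexin and S100 genes called in either variant, 1 remained called with no submission term and in 4LJFHN alone, and 1 to 3 with 1 library left out. Between the variants the 1 call became 0 with no submission term. The cause was not tested.

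Of 479 alternative values of single genes, 28 lost a call and 30 changed sign, and none of the 30 belonged to a difference that had passed the test. In R227Q with no submission term these were ANXA5 (0.11) and S100A10 (0.0089), and ANXA7 in 4LJFHN alone (0.039) and with 1 library left out (−0.089 to 0.040). In H448L they were, with no submission term, ANXA4 (−0.039), ANXA5 (0.30) and ANXA6 (0.022), and with 1 library left out ANXA4 (−0.061 to 0.11) and ANXA5 (−0.16 to 0.015). Between the variants ANXA2 was −3.9e-05 with limma-voom, −0.0046 with upper-quartile factors, −0.013 with every gene with a count, −0.0022 with at least 10 counts and −0.20 with no submission term. ANXA5 was 0.19 with no submission term and 0.022 in 4LJFHN alone. With 1 library left out the ranges there were −0.043 to 0.037 for ANXA2, −0.19 to 0.020 for ANXA4, −0.055 to 0.025 for ANXA5, −0.016 to 0.16 for ANXA6 and −0.026 to 0.0014 for ANXA11.

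Replicate numbers were not taken to pair the libraries in the main fit. Residuals of same-numbered libraries correlated at −0.40 to 0.12, and those of differently numbered libraries of other groups at −0.39 to 1. The terms for group and submission tie some residuals to each other, so these correlations cannot decide whether the numbers pair the libraries. With a replicate block the R227Q call of ANXA6 (−0.16, edgeR adjusted p = 0.0841) and the H448L call of ANXA2 (−0.12, adjusted p = 0.203) were lost, as were (adjusted p) those of KLF9 (0.101), PLAU (0.136), CAPN2 (0.0666), VAMP3 (0.0583), PDCD6 (0.105) and THY1 (0.0972) in R227Q and of AHNAK2 (1.31, 0.0661), LAMP1 (0.0648) and SYTL4 (0.0716) in H448L. The calls of NES in H448L (edgeR adjusted p = 0.0623) and of CLDN3 between the variants (0.063) were lost as well. Under the replicate block ANXA6 in H448L became 0.0078 and ANXA5 between the variants 0.030. The number of libraries limits every small difference, and levels near the floor of 3 counts cannot be read.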
